A study of Mus musculus with 24 samples.

Results

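DNA replication and the supply of its nucleotides were examined through 36 genes in ovaries of the mouse lines FL1 and DUKsi. The genes were listed by function, and 35 of the 36 were represented on the array by at least 1 probe set of their own, among 12393 genes measured in all. No probe set was annotated to Rnaseh2a alone, so that this subunit of the enzyme that removes RNA from DNA was not measured. FL1 was bred to generation 130 for an index of litter size and litter weight at birth, and DUKsi is the unselected control line from the same crossbred founder population, kept as an inbred line by matings between full siblings. All animals were virgin females, 6 to 9 weeks old by the study's methods, and ovaries were taken at metestrus, the stage that follows ovulation. Each line was represented by 30 animals in 6 RNA pools (5 animals per pool by the methods, 6 by the labels), with 2 arrays per pool. A difference between the lines is thus one between 2 populations with separate breeding histories and different inbreeding, and it cannot be assigned to the selection alone.

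Before DNA is copied, the origin recognition complex with Cdc6 and Cdt1 loads the Mcm2-7 helicase onto origins, and Cdc45 helps to activate it. Primase and polymerase alpha start each strand, the clamp loader RFC places the clamp PCNA, and polymerases delta and epsilon extend the strands, while RPA covers single-stranded DNA and Fen1 and Lig1 finish the fragments of the lagging strand. Many of these genes are transcribed at the entry into S phase through E2F factors, and in the ovary the granulosa cells of growing follicles are the main dividing cells, whereas luteal cells form after ovulation and largely leave the cell cycle.

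Sequences upstream of these genes are shown for 4 members. RefSeq windows of the GRCm38.p6 assembly, with 250 bases before and 50 bases after a start site, were on hand for 31 of the 36 genes. Pold2 and Mcm5 had the lowest adjusted p-values among the members, Mcm6 had probe sets on both sides of the threshold, and Pold1 encodes the partner of Pold2. Mcm2 and Fen1 had lower adjusted p-values by limma than Mcm6 (0.0678 and 0.0924, against 0.132). Their windows are not shown and held 0 E2F motifs. Letters are given 5′ to 3′ on the gene's strand, and capitals mark E2F motifs.
Pold2 (chr11:5878207-5878506, minus strand): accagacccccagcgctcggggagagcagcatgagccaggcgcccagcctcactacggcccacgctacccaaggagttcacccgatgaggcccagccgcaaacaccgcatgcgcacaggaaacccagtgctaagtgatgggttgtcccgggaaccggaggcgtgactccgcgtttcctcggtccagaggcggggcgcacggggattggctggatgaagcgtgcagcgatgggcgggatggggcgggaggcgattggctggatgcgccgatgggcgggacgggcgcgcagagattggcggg
Mcm5 (chr8:75109259-75109558, plus strand): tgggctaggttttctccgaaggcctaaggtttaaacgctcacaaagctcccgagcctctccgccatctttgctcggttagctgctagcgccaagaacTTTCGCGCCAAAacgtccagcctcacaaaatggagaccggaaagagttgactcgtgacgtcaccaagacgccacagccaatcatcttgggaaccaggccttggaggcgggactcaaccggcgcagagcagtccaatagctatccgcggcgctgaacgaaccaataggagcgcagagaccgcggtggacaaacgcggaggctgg
Mcm6 (chr1:128359656-128359955, minus strand): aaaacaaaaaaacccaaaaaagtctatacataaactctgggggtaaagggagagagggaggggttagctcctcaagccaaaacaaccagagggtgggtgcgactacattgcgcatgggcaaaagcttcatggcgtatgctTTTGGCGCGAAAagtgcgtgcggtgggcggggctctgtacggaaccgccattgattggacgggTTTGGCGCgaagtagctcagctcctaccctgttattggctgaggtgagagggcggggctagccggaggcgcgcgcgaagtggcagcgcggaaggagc
Pold1 (chr7:44548766-44549065, minus strand): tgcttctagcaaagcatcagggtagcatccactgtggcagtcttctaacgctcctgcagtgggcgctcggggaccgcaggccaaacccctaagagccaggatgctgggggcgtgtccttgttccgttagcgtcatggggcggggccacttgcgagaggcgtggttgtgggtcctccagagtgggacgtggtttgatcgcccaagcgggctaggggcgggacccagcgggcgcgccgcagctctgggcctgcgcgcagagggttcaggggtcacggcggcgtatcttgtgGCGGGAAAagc

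The E2F motifs searched on both strands were TTTCCCGC, TTTGGCGC, TTTCGCGC and TTTGCCGC. At least 1 of them was found for 11 of the 31 members with a window (35.5%), against 2.6% of 27025 mouse genes and 4.07% of the genes on the array. In Mcm5 a pair of overlapping motifs began 153 bases before the start site. In Mcm6 an overlapping pair began 110 bases before the start site, and a single motif followed at 47 bases. The motif of Pold1 lay 39 bases after the start site, and in the Pold2 windows these letters were not found. The CCAAT box was present in 67.7% of the members and in 41.1% of all genes (42.3% of the genes on the array). The element TTTGAA, known as CHR, was present in 12.9% of the members and in 20.2% of all genes (15.4% of the genes on the array), and in 65.4% of the mitosis genes listed for comparison. A match of letters is a description and neither a binding site nor a cause. The 11 members with an E2F motif had a median log2 fold change of -0.23, with 10 below 0, and the 19 measured members with a window but without the motif had a median of -0.10, with 14 below 0. The 4 members with CHR (Cdc45, Fen1, Mcm2 and Pold2) had a median of -0.42, with 4 below 0. For the 26 without CHR the median was -0.10, with 20 below 0. With a CCAAT box the median was -0.12 (20 members), and without it -0.13 (10 members). These medians were not tested against each other.

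Signals are MAS5 values on a linear scale, and signals of different probe sets cannot be set against each other. The arrays of a pool correlated at 0.971 to 0.988 across the probe sets with a mean signal above the median. The 3′ to 5′ signal ratio of beta-actin, a measure of RNA integrity, was 1.32 to 2.45 in FL1 and 1.18 to 1.32 in DUKsi. The lines narrowly did not overlap in it (lowest FL1 pool 1.322, highest DUKsi pool 1.317). In the same ratio of Gapdh they overlapped, at 1.13 to 2.31 in FL1 and 1.08 to 1.51 in DUKsi. FL1 pool 3 had the highest ratio of both genes and the lowest mean correlation with its own line (0.947, over the same brighter probe sets). Because the actin ratio differed with the line, fits with it as a covariate cannot cleanly separate the ratio from the line difference. Pools of animals serve as replicates here, and with 6 of them per line the precision is limited. Defining markers of granulosa cells, luteal cells and oocytes were all above the level under which 20% of all signals lay (48.6) in at least 1 line, where measured.

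Of the 35 measured members, 2 were lower in FL1 and 0 were higher at an adjusted p under 0.01 (limma over 22626 probe sets), namely Pold2 and Mcm5. Among all genes, 1.65% were lower and 2.08% were higher by the same criterion, and of all probe sets 3.38% passed in either direction. No further member passed at an adjusted p under 0.05, where 7.42% of all genes did, so that at this wider limit the members' 2 of 35 was not a larger share than the background. Without adjustment, 8 members were lower at p under 0.05 (22.9%; background 10.6%) and 0 were higher (background 9.92%). The methods' t-test called 0 in either direction, here adjusted after Benjamini and Hochberg and not by the study's q-values. Counted on the brightest probe set of each gene, the 8 lower without adjustment were Mcm2, Mcm5, Mcm6, Pold1, Pold2, Fen1, Rfc3 and Rrm2. The signals of the lines did not overlap in 2 members that were lower in FL1 (background 2.33%) and in 0 that were higher (background 2.6%).

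The members' log2 fold changes (FL1 over DUKsi) lay between -0.74 for Mcm2 and 0.12 for Orc6, with a median of -0.10 and quartiles of -0.24 and -0.05. The median over all genes was -0.05. Below 0 were 29 of the 35 members (82.9%; background 58.9%). After scaling the arrays to the same median, 20 of 35 members were below 0, with 43.0% of all genes below 0. With quantile normalization 27 of 35 were below 0, against 51.2% of all genes, and with the actin ratio as a covariate 22 of 35, against 61.2%. For 31 members the 95% interval of the difference lay within a 1.5-fold change in both directions (background 59.5%). The interval of Mcm2, Cdc6, Pold2 and Tyms reached beyond it. In RNA of whole ovaries, fewer cells of a type and less RNA per cell cannot be told apart.

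**Figure D1:**
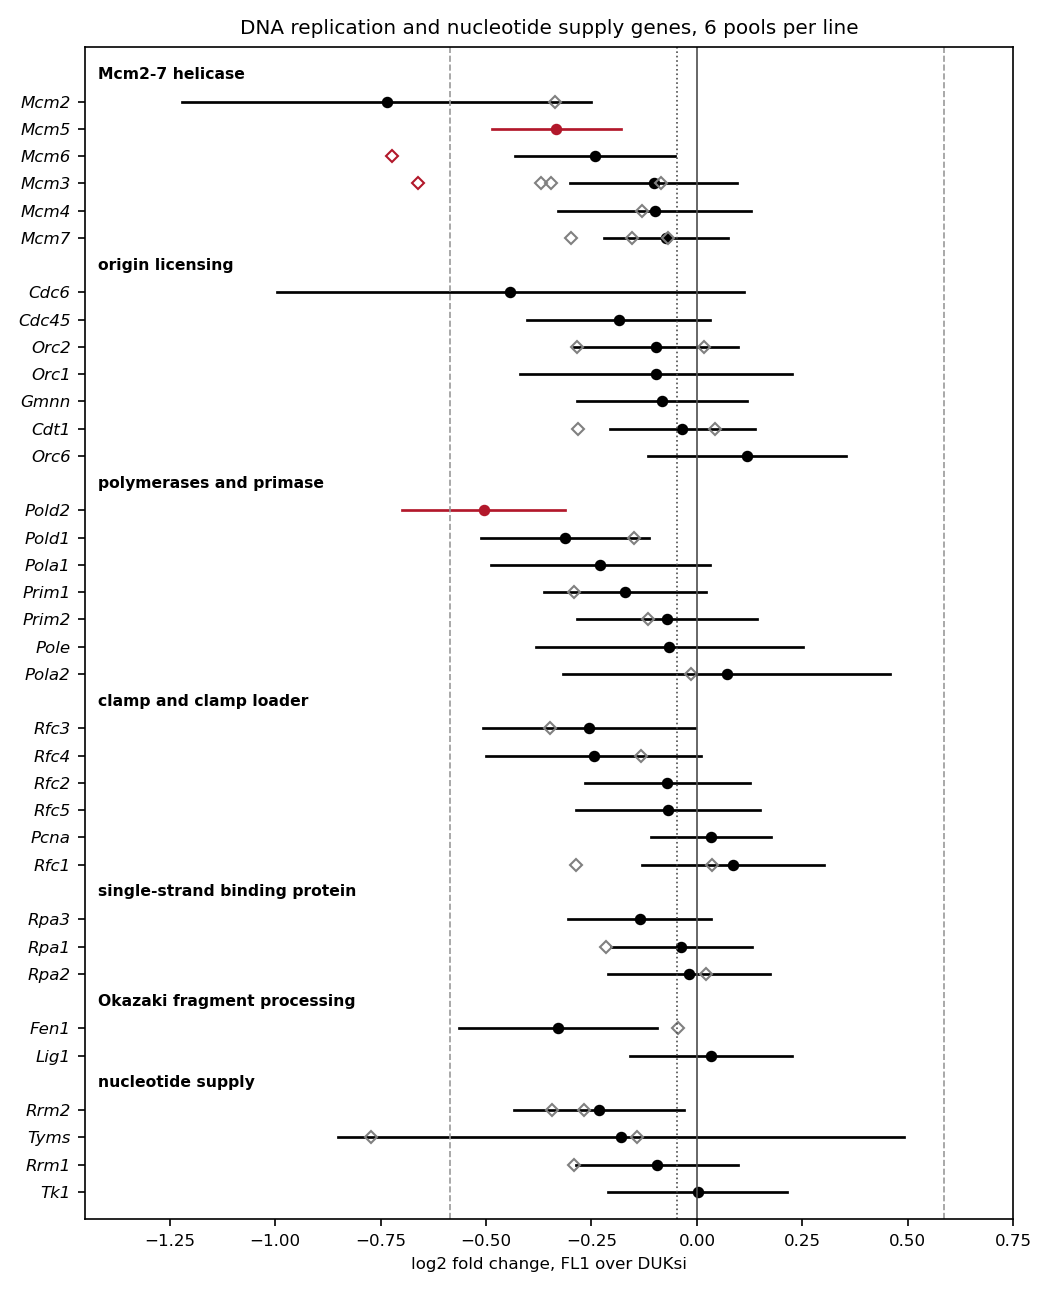
Log2 fold change of FL1 over DUKsi (x axis) for the 35 measured members by role (y axis), as points with 95% intervals from limma on 6 pools per line, and the other probe sets of a gene as open diamonds. Red marks an adjusted p under 0.01, dashed lines a 1.5-fold change and the dotted line the median of all genes (-0.05). Most points lie left of 0, while 31 of 35 intervals stay between the dashed lines.

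All 6 genes of the Mcm2-7 helicase had a log2 fold change below 0, with a median of -0.17, and 1 of them passed the test. Mcm5, a subunit of the ring that opens the double helix, had signals of 694.6, 692.0, 621.5, 712.4, 661.7 and 653.2 in FL1 pools 1 to 6 and of 835.0, 861.6, 772.8, 765.4, 905.2 and 955.2 in DUKsi pools 1 to 6. The highest FL1 pool was below the lowest DUKsi pool. The means were 673 ± 33.3 and 849 ± 74.3 (SD, n = 6 pools each), and FL1 reached 79.2% of DUKsi. On the log2 scale the difference was -0.33 with a standard error of 0.07 (adjusted p = 0.00938). That call was close to the threshold: it was lost in 10 of the 12 fits that left out 1 pool (adjusted p up to 0.0290) and held only without DUKsi pool 3 or without DUKsi pool 4. With the actin ratio as a covariate the log2 fold change was -0.27 (adjusted p = 0.0487), and after scaling to the same median it was -0.25 (adjusted p = 0.0716).

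Mcm2, which is phosphorylated when the helicase is activated, was measured by a pair of probe sets. On the brighter, 1434079_s_at, the signals ran from 658.8 over a median of 779 to 1664 in FL1 and from 1157 over 1408 to 2254 in DUKsi. FL1 pools 3 and 4 lay within the range of DUKsi, and the other 4 lay below it. The log2 fold change of -0.74 with a standard error of 0.23 was the lowest of the members' and did not pass (adjusted p = 0.0678). Without FL1 pool 3 it was -0.91 (adjusted p = 0.00770), and with the actin ratio as a covariate it was -1.17 (adjusted p = 0.00609). The other probe set, 1448777_at, spanned 559.4 to 722 in FL1 and 645 to 898 in DUKsi, with a log2 fold change of -0.34 (adjusted p = 0.0327). On that probe set FL1 pool 3 had the lowest signal, whereas on the brighter one it had the highest of its line. Averaged over both probe sets, Mcm2 passed at -0.54 on the log2 scale (adjusted p = 0.00939).

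For Mcm6, another ring subunit, the results differed with the probe set. On 1416251_at, the brighter, the signals ran from 1102 over 1179.7 to 1451 in FL1 and from 1142 over 1436 to 1619 in DUKsi, and the lines overlapped through FL1 pool 1 and DUKsi pool 4. Its log2 fold change of -0.24 (standard error 0.09) did not pass (adjusted p = 0.132). On 1438852_x_at, the range was 219 to 359.8 in FL1, with a median of 282, and 338.3 to 519 in DUKsi, with a median of 478. Only FL1 pool 3 reached above the lowest DUKsi pool, pool 4. Here the log2 fold change was -0.72 with a standard error of 0.13 and passed (adjusted p = 0.00298), and it stayed past the threshold without any single pool except DUKsi pool 2 (adjusted p = 0.0101). It missed the threshold in 3 of 14 other settings (adjusted p up to 0.0215). Averaged over both probe sets, Mcm6 passed at -0.48 on the log2 scale (adjusted p = 0.00568).

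Mcm3, also a ring subunit, had a call on 1 of its probe sets as well. The brightest of its 5 probe sets, 1420028_s_at, had signals from 750.6 over 867 to 996 in FL1 and from 729.8 over 953 to 1058 in DUKsi, and on the log2 scale they differed by -0.10 (adjusted p = 0.589), with the lines overlapping almost fully. On 1449705_x_at the signals ran from 214 over 306 to 336 in FL1 and from 378 over 457 to 555 in DUKsi. The lines did not overlap there, and the log2 fold change of -0.66 with a standard error of 0.14 passed (adjusted p = 0.00617). The call was lost in 7 of the 12 fits without 1 pool, namely without FL1 pool 3, 4 or 6 or without DUKsi pool 1, 2, 3 or 6 (adjusted p up to 0.0192). Mcm4 had a log2 fold change of -0.10 and Mcm7 of -0.07, and none of their probe sets passed. In Affymetrix names the endings x and s mark probe sets that hold probes shared with other transcripts.

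On the brightest probe sets of the 7 genes for origin licensing and its control, 0 passed in either direction by limma. There, 0 had an unadjusted p under 0.05, and the median log2 fold change was -0.10. Cdc6, which loads the helicase with Cdt1, had signals from 64.2 over 77.2 to 193 in FL1 and from 92.3 over 123 to 169 in DUKsi. FL1 pool 3 was the highest of all 12 pools, FL1 pool 6 lay within the range of DUKsi, and the other 4 FL1 pools were below it. The log2 fold change of -0.44 had a standard error of 0.26 and a 95% interval from -0.996 to 0.112 (adjusted p = 0.376). With the actin ratio as a covariate it was -0.98 and did not pass either (adjusted p = 0.0219). Cdc45, a part of the active helicase, had a log2 fold change of -0.19. For the origin recognition complex it was -0.10 for Orc1, -0.10 for Orc2 and 0.12 for Orc6. One of the fainter probe sets of Orc2, 1418227_at, spanned 136 to 166 in FL1 and 173 to 192 in DUKsi without overlap, with a log2 fold change of -0.28 that did not pass (adjusted p = 0.141). Cdt1 and its inhibitor geminin, the product of Gmnn, had log2 fold changes of -0.03 and -0.08. A fainter probe set of Cdt1, 1424144_at, was at -0.28 and did not pass (limma, adjusted p = 0.130). That probe set and Orc2 1418227_at had an unadjusted p under 0.05.

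Among the 7 genes of polymerases and primase, 1 was lower in FL1, 0 were higher, and the median log2 fold change was -0.17. Pold2 encodes the accessory subunit that joins the catalytic subunit of polymerase delta to the rest of the enzyme. Its signals were 634.5, 589.7, 569.4, 489.2, 533.6 and 514.0 in FL1 pools 1 to 6 and 738.5, 922.9, 726.0, 692.5, 769.9 and 887.2 in DUKsi pools 1 to 6. Every FL1 pool was below every DUKsi pool. FL1 had a mean of 555 ± 53.3 and DUKsi one of 789.5 ± 93.6 (SD over 6 pools), and FL1 reached 70.3% of DUKsi. The log2 fold change was -0.51 with a standard error of 0.09 (adjusted p = 0.00231; 95% interval of the fold 0.616 to 0.805). It remained past the threshold in each of the 12 fits without 1 pool (adjusted p 0.00192 to 0.00767). It missed the threshold when only second arrays were used (-0.48, adjusted p = 0.0258), after scaling to the same median (-0.42, adjusted p = 0.0113), by the methods' t-test (adjusted p = 0.0127) and with the actin ratio as a covariate (-0.46, adjusted p = 0.0153).

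Pold1, the catalytic subunit of polymerase delta, had signals from 398 over 431 to 527 in FL1 and from 456 over 559 to 599 in DUKsi. FL1 pool 3 alone lay within the range of DUKsi. The log2 fold change was -0.31 with a standard error of 0.09 and did not pass (adjusted p = 0.0593), and on the other probe set it was -0.15 (adjusted p = 0.563). For Pole, the catalytic subunit of polymerase epsilon, it was -0.07. For polymerase alpha it was -0.23 in the catalytic Pola1 and 0.07 in the accessory Pola2. The primase subunits Prim1 and Prim2 had log2 fold changes of -0.17 and -0.07. None of these passed the test.

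For the clamp and its loader, 0 of 6 genes passed in either direction by limma, 1 was lower at an unadjusted p under 0.05, and the median log2 fold change was -0.07. Pcna, the sliding clamp and a common marker of S phase, had signals from 4655 over 5551 to 5665 in FL1 and from 4831 over 5243 to 5971 in DUKsi. The lines overlapped, FL1 pool 3 being the lowest of all pools. Its log2 fold change was 0.03 with a 95% interval from -0.11 to 0.18, so that a change of 1.5-fold lay outside the interval. Rfc3 spanned 207 to 259 in FL1 and 207 to 342 in DUKsi, and the log2 fold change of -0.26 did not pass (adjusted p = 0.241). Its other probe set, 1432538_a_at, spanned 196 to 235 in FL1 and 242 to 299 in DUKsi without overlap, at -0.35 (adjusted p = 0.0455). Rfc4 spanned 194 to 234 in FL1 and 196 to 289 in DUKsi, and its log2 fold change was -0.24 (adjusted p = 0.275). The values of Rfc2 and Rfc5 were -0.07 each. For Rfc1, the large subunit of the loader, the value was 0.09, and its remaining probe sets gave 0.04 and -0.29.

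The subunits of RPA had log2 fold changes of -0.04 (Rpa1), -0.02 (Rpa2) and -0.14 (Rpa3). On these brightest probe sets none of the 3 passed, and 0 had an unadjusted p under 0.05. The other probe set of Rpa1 was at -0.21 (limma, unadjusted p = 0.0170, adjusted p = 0.138). Fen1, the nuclease that trims the flaps of lagging-strand fragments, had signals from 1252 over 1438 to 2133 in FL1 and from 1660.4 over 2004 to 2079 in DUKsi on its brighter probe set. FL1 pool 3 was the highest of all 12 pools, and the other 5 FL1 pools were below the lowest DUKsi pool. Its log2 fold change of -0.33 had a standard error of 0.11 (adjusted p = 0.0924). Without FL1 pool 3 it was -0.43 and passed (adjusted p = 0.00426), and with the actin ratio as a covariate it was -0.62 and passed (adjusted p = 0.000298). On the other probe set of Fen1 it was -0.05 (adjusted p = 0.854), and there FL1 pool 3 was the lowest of its line. Lig1, the ligase that seals these fragments, had a value of 0.03.

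In the nucleotide supply, ribonucleotide reductase makes the deoxyribonucleotides, and 0 of the 4 genes listed passed in either direction by limma. Its large subunit Rrm1 had a log2 fold change of -0.09. The other probe set of Rrm1 was at -0.29 (limma, unadjusted p = 0.0159, adjusted p = 0.132). On the brightest probe sets, the small subunit Rrm2 was the only gene of the 4 with an unadjusted p under 0.05. Rrm2 spanned 1039 to 1412 in FL1 and 1236 to 1520.3 in DUKsi, and its value of -0.23 did not pass (adjusted p = 0.179). The other probe sets of Rrm2 gave -0.27 and -0.34, and neither passed. Tk1, the thymidine kinase of dividing cells, gave 0.00 with a 95% interval from -0.21 to 0.21. Tyms, thymidylate synthase, was close to the dim end of the arrays, with signals from 21.6 to 75.1 in FL1 and from 37.4 to 75.2 in DUKsi. Its 95% interval from -0.85 to 0.49 left the difference poorly determined.

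**Figure D2:**
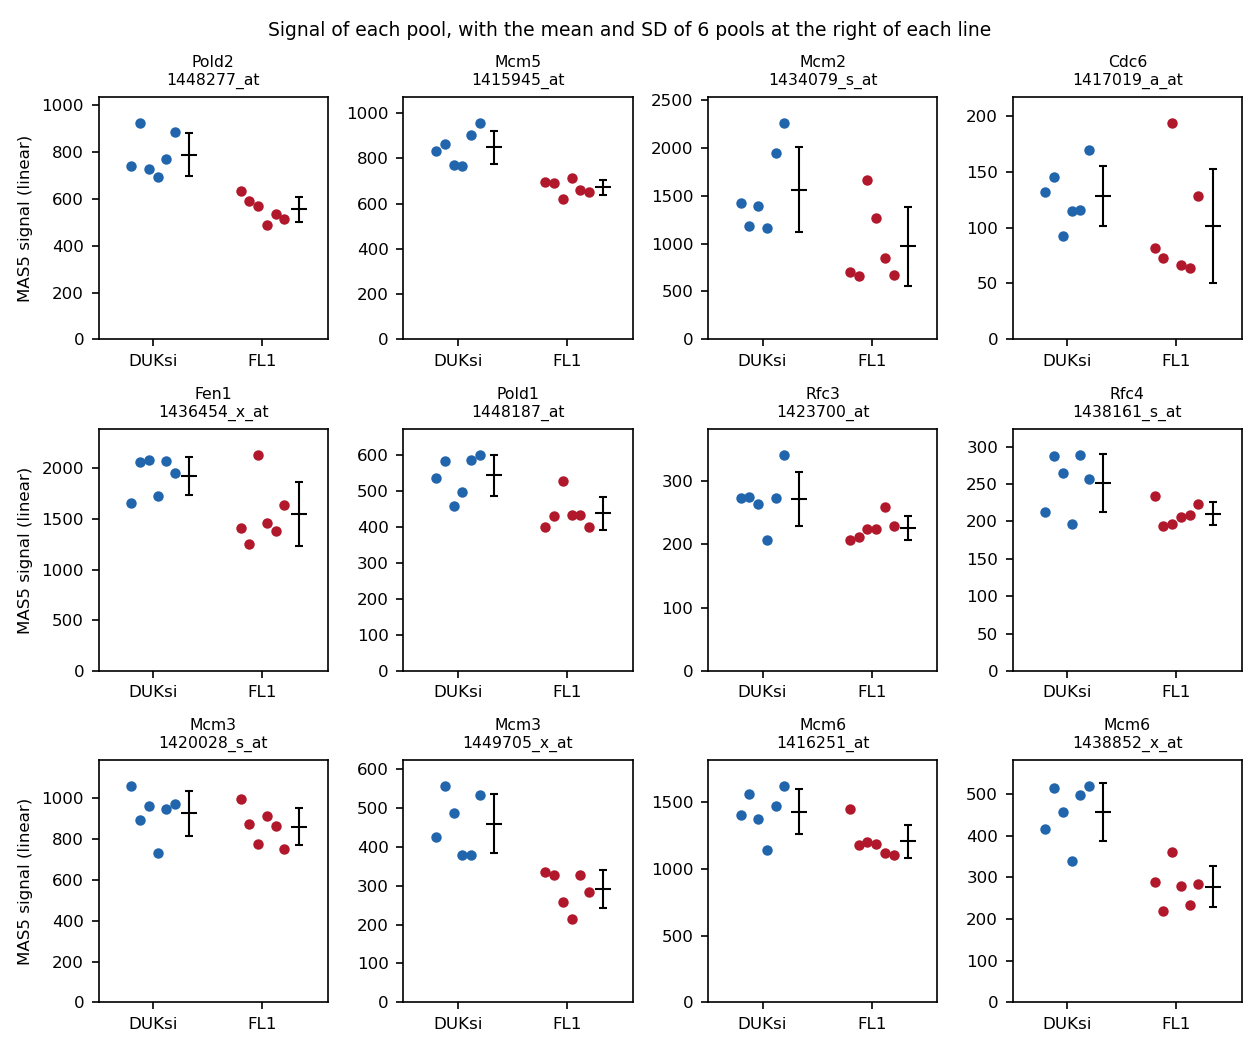
MAS5 signal (y axes, linear, from 0) of each pool of DUKsi (blue) and FL1 (red) for the 8 members named by rule and for Mcm3 and Mcm6 with both of their probe sets. Points follow pool numbers 1 to 6 from left to right, and bars give mean ± SD of 6 pools. The lines are apart in Pold2, Mcm5 and Mcm3 1449705_x_at, and FL1 pool 3 is the highest FL1 pool in Mcm2, Cdc6, Fen1 and Pold1.

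The 35 genes had 65 probe sets, 20 genes having several and 15 a single one. Below 0 were 55 of the 65 and 26 of the 30 that were not the brightest of their gene. Of these 30, 2 passed as lower in FL1, in Mcm3 and Mcm6, and 0 as higher (limma). In Cdt1, Orc2, Pola2, Rpa2 and Rfc1 the probe sets had both signs. Whether the line difference of a further probe set departed from that of the brightest was tested within pools. No member pair passed (0 of 30, against 0.977% of 7987 pairs over all genes). At an unadjusted p under 0.05 the fainter probe set was lower in 4 pairs and higher in 0. The share of such pairs over all genes was not computed. The lowest adjusted p-values were those of Mcm6 1438852_x_at, with a gap of -0.48 (adjusted p = 0.0794), and Mcm3 1449705_x_at, with a gap of -0.56 (adjusted p = 0.1003). A gap of -0.59 in Tyms 1427811_at, a dim probe set, had an adjusted p of 0.623. The difference between a call and no call in Mcm6 and Mcm3 was thus not itself significant after adjustment. Without adjustment the limma p-values of these gaps were 0.00229 and 0.00359.

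Over the pools, the members' median deviation from their means was -0.124 to -0.0159 in FL1. In DUKsi it was 0.00784 to 0.190 in 5 pools and -0.108 in pool 4. In FL1 pool 5, 28 of the 35 members were below their mean over all pools, and in DUKsi pool 6, 4 were. DUKsi pool 4, with 24 members below their mean, resembled the FL1 pools in that count, in which the FL1 pools had 19 to 28. With the median deviation of all genes in the same pool subtracted, the members were at -0.105 to -0.0210 in FL1, pool 3 being the lowest. DUKsi pool 4 was then at -0.160, below every FL1 pool, and the other DUKsi pools were at 0.0286 to 0.150. The median SD of a member was 0.154 between FL1 pools, 0.162 between DUKsi pools and 0.161 between arrays of a pool on the log2 scale. The FL1 SD was the larger in 16 of the 35 members. With line means removed, pairs of members correlated at a median of 0.27 over the 12 pools, members with mitosis genes at 0.25 and mitosis genes with each other at 0.37. The pools were scaled alike and differed in RNA integrity, and the correlations are a description. Without FL1 pool 3 and DUKsi pool 4 together, 4 members were lower in FL1 at an adjusted p under 0.01. They were Pold2 (-0.55), Mcm5 (-0.34), Mcm2 (-0.99) and Fen1 (-0.46). DUKsi pool 4 stood out in the members' own values, and FL1 pool 3 was high in Mcm2 and Fen1. The larger count without these pools is therefore no independent support for a line difference.

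**Figure D3:**
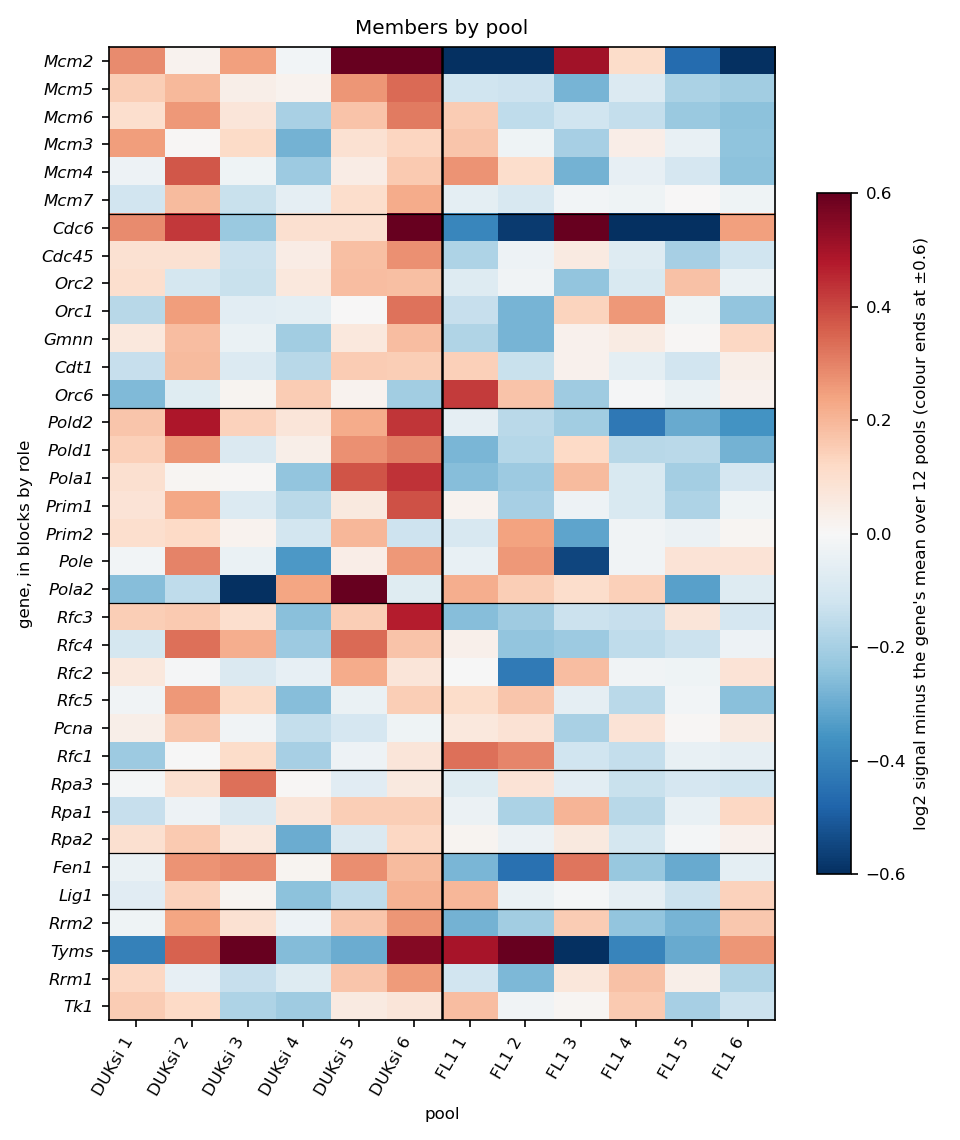
Log2 signal minus the gene's mean over 12 pools (colour, ends at ±0.6) for the 35 members (y axis, in blocks by role) and the 12 pools (x axis, DUKsi left of the black line, FL1 right). DUKsi pools 2, 5 and 6 are mostly red and FL1 pools mostly blue, with DUKsi pool 4 below the mean in 24 members, and FL1 pool 3 departs from its line in Mcm2, Cdc6 and Fen1.

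Some markers of ovarian cell types differed between the lines as well. Of 12 measured granulosa cell markers 2 were lower in FL1 (Ccnd2, Inhba) and 0 were higher, with a median log2 fold change of -0.22. Amh, also a granulosa cell marker, was at 0.27 and did not pass (adjusted p = 0.191). The summed signal of the 12 markers was 43590.0 to 49720.0 in FL1 and 51125 to 59728 in DUKsi, without overlap. Of 9 luteal cell markers 4 were higher in FL1 (Cyp11a1, Fdx1, Hsd17b7, Ptgfr) and 0 were lower. Their summed signal was 62565 to 73391 in FL1 and 33072 to 49829 in DUKsi. Of 11 oocyte markers 1 was lower (Zp3), with sums of 7966 to 10668 in FL1 and 10494 to 12657 in DUKsi. None of the markers of these 3 lists was under the dim level in both lines. Of 4 theca cell markers 0 passed, with a median of -0.34, all 4 having an unadjusted p under 0.05 as lower. Of the other cell types, Myl9 (smooth muscle, -0.63) was lower, as 1 of 6 markers with a median of 0.02. Higher were Pecam1 (endothelium, 0.58, 1 of 8, median 0.25) and Upk3b (surface epithelium, 1.29, 1 of 6, median 0.26). Alas2 (erythroid cells, 2.01) was higher as 1 of 2 measured, and the other, Hba-a1, was at -0.36 without passing. Alas2 averaged 14.2 in DUKsi, under the dim level, and 51.5 in FL1. On the brightest probe set of a gene, used for all these counts, markers of lymphocytes (9 measured) and macrophages (10 measured) had 0 calls by limma. At an unadjusted p under 0.05, 1 and 3 were higher and 0 and 1 lower. By limma, a fainter probe set passed as lower in Nr5a2 (-0.64, adjusted p = 0.000288), Inhbb (-0.69, adjusted p = 0.00114) and Kitl (-0.69, adjusted p = 0.000646). In Star (1.61, adjusted p = 0.00765) and the lymphocyte marker Ighm (2.11, adjusted p = 0.000171) a fainter probe set passed as higher. That of Ighm averaged 26.7 in DUKsi, under the dim level, and its other probe sets had both signs without passing. The part of these markers in the members' values was not tested.

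To place the members, 5 further lists of genes of the cell cycle and of nucleotide metabolism were examined. Of 27 other origin and fork genes, 0 passed in either direction by limma and by the methods' t-test, 6 were lower at an unadjusted p under 0.05 and 0 were higher, with a median log2 fold change of -0.13. The brightest of them were Top1, the topoisomerase that relaxes DNA ahead of the fork (-0.09), and Supt16, a histone chaperone subunit (-0.16, adjusted p = 0.129). Of 18 E2F and G1/S regulators, 0 passed by either test, 4 were lower and 1 was higher without adjustment, and the median was -0.11. Ccna2, the cyclin of S phase, averaged 1539.7 ± 117 in the FL1 pools and 1542 ± 67.6 in the DUKsi pools (SD over 6 pools), a log2 difference of -0.00452. Tfdp1, the partner of E2F factors, had a value of -0.09. Of 13 chromatin genes coupled to replication, 0 passed by either test, 5 were lower and 0 were higher without adjustment, and the median was -0.11. Rbbp4 and Rbbp7, histone-binding subunits, had values of -0.09 and -0.03.

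Genes of these lists that passed were Samhd1 and Pttg1. Of 27 other nucleotide supply genes, 1 was higher in FL1, 0 were lower, and the median was -0.04. At an unadjusted p under 0.05, 3 were lower and 3 were higher, and the methods' t-test with adjustment called 0 as lower and 1 as higher. Samhd1 encodes the enzyme that breaks down deoxyribonucleoside triphosphates, the reverse of the supply by ribonucleotide reductase. Its signals were 751.6 to 1180.4 in FL1 and 341.8 to 591 in DUKsi, without overlap. The means were 983 ± 142 and 445 ± 90.1 (SD, n = 6 pools each), and the log2 fold change was 1.15 with a standard error of 0.13 (adjusted p = 3.25e-05). When the probe sets of each gene were averaged, Samhd1 was not called. Of 29 mitosis genes, 1 was lower, 0 were higher, and the median was -0.08. At an unadjusted p under 0.05, 6 were lower and 1 was higher, and the methods' t-test with adjustment called 2 as lower and 0 as higher. Pttg1, securin, which keeps separase inactive until anaphase, had signals of 3666 to 4867 in FL1 and 7110.1 to 8882 in DUKsi. Its log2 fold change was -0.92 with a standard error of 0.08 (adjusted p = 1.65e-06).

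**Figure D4:**
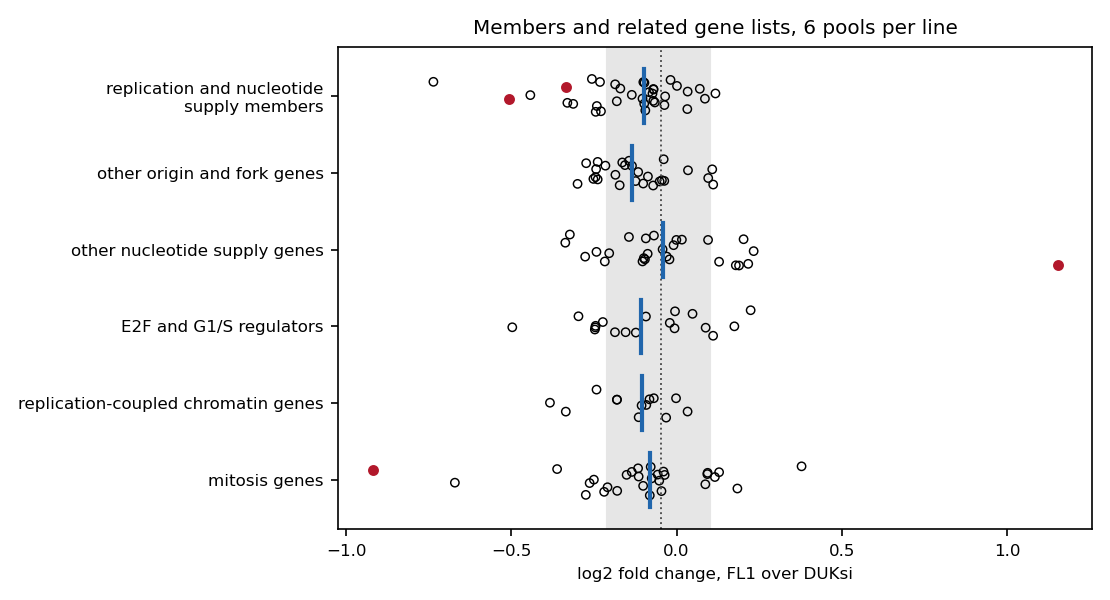
Log2 fold change of FL1 over DUKsi (x axis) for the 35 members and for 5 related lists (y axis), 1 point per gene from its brightest probe set, with blue bars for medians. Filled red points passed an adjusted p under 0.01, the dotted line is the median of all genes and the grey band their middle quartiles. The medians of the lists run from -0.13 to -0.04, and Samhd1 (1.15) and Pttg1 (-0.92) stand apart.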

How the data were processed

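RNA of ovary pools was measured by the authors on MOE 430A arrays. The deposited intensity values are linear MAS5 signals that the authors had scaled to the same trimmed mean on every array (500.1). From these, the mean signal of the 2 arrays of a pool was taken, and log2 values of 12 pools were compared in R 4.3.3 with limma 3.58.1 (empirical Bayes, variance modelled against signal level). Apart from 64 control probe sets, all were tested, and p-values were adjusted after Benjamini and Hochberg over 22626 probe sets. Of these, 20380 had 1 gene in the platform annotation, 691 had several and 1555 had none. A gene was represented by its brightest probe set annotated to it alone. Members with an adjusted p under 0.05 were to be given in full, and were filled up to 8 by the largest absolute log2 fold change. In related lists, genes past the test were named, or otherwise the 2 brightest. The members and the lists were chosen with earlier results of these data known. The motif search used RefSeq windows of GRCm38.p6. The procedure was tested on simulated signals. The methods' t-test was likewise adjusted after Benjamini and Hochberg, where the study used q-values. Single-probe intensities and detection calls were not used here. Alternatives were either array of a pool alone, the mean of log2 signals, the 24 arrays separately with pools as a random block, quantile and median scaling, an added constant, omission of dim probe sets, the methods' t-test, limma without trend, robust limma, a replicate block by pool number, the actin ratio as a covariate, averaging of a gene's probe sets, other thresholds, and omission of pools.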

Additional observations from a re-analysis of the deposited data

Results flagged for a closer look

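In 5 members, 1 pool of a line lay far from the other 5 by Dixon's ratio, out of 70 groups of 6 pools examined. Chance alone marks about 1 in 20 such groups. In FL1 pool 3, Pcna was low, with a signal of 4655 (4654.75) against 5364 to 5665 in the other FL1 pools. In the same pool Pola1 was high, at 382.6 against 281 to 315, and Pold1 was high, at 526.8 against 398 to 433. This pool also had the highest actin ratio, 2.45, whose part in these values was not tested. Mcm6 was high in FL1 pool 1, at 1451 against 1102 to 1204. Rpa3 was high in FL1 pool 2, at 573.9 against 495 to 520.1 in the other FL1 pools.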

How the results depend on the processing

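The number of members lower in FL1 was 2. It was 1 on the first array of each pool, with quantile normalization, with limma without the trend, with its robust setting and with the pool number as a replicate block. It was 0 on the second array of each pool, after scaling to the same median, by the methods' t-test and when a 1.5-fold change was required in addition. It was 4 when a gene's probe sets were averaged and without FL1 pool 3 and DUKsi pool 4, and 1 to 3 when 1 pool was left out. The separate arrays with pools as a random block gave 3, Pold1 in addition (adjusted p = 0.00923). The actin covariate, which itself differs between the lines, gave 2 but other genes, Mcm2 and Fen1 in place of Pold2 and Mcm5. The number of members higher in FL1 was 0 under all of these. The median log2 fold change was -0.0112 after scaling to the same median, where that of all genes was 0.0400, and it was -0.141 to -0.0788 when 1 pool was left out. Of 321 single-gene values under the alternatives, 1 had the opposite sign: that of Mcm3 on 1420028_s_at was 0.0298 with the actin ratio as a covariate (adjusted p = 0.874). The causes were not tested. Pool numbers do not pair the lines. Same-numbered pools correlated at -0.264 to 0.167 after removal of line means, over probe sets with a mean signal above the median. The paired fit with a replicate block called 564 probe sets against 764. The second array called 468, the methods' t-test 507, limma without the trend 528, 24 arrays 1278 and the actin covariate 1241. Of the 764, 351 were lower and 413 higher, which became 297 and 449 with quantile normalization and 229 and 634 with median scaling. The members with the widest intervals were Tyms and Cdc6, and 32 members remained when dim probe sets were left out. Arrays and pools limit what can be told: pooling hides the spread between animals.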
